A study of Mus musculus with 22 samples.

Results

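Pparg (ENSMUSG00000000440.12) encodes PPARγ, and its locus was examined here in ATAC-seq peak lists from mouse adipocyte nuclei. The gene lies on the forward strand at chr6:115360951-115490399 (GRCm38) and spans 129 kb. The locus was taken as the gene plus 20 kb on each side, chr6:115340951-115510399, or 169 kb in all. It is 1 of 21911 protein-coding gene loci that were measured in the same way, and its 2 promoters are among 26584 promoters. ATAC-seq maps open chromatin by where the Tn5 transposase can insert, and a peak is a stretch of DNA where the summed insertion coverage exceeds a threshold.

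All 22 libraries came from AdipoERCre x NuTRAP mice, in which a tamoxifen-inducible Cre, driven in adipocytes by the adiponectin promoter, switches on a reporter that tags nuclei with biotin. Each library holds the labelled nuclei of frozen epididymal fat from 1 animal, and the purity of the labelled nuclei was not measured directly here. C (n = 3, 18 weeks old), CC_s (n = 3, 26 weeks), CC_l (n = 2, 31 weeks) and CCC (n = 2, 39 weeks) were fed chow. H (n = 3, 18 weeks) received high-fat diet for 12 weeks and HH (n = 3, 31 weeks) for 25 weeks. HC (n = 3, 26 weeks) and HHC (n = 3, 39 weeks) returned to chow for 8 weeks after 12 and 25 weeks of that diet. The study asked whether adipocytes keep chromatin changes of obesity after weight loss, so each diet group was set against the chow group of its own age: C for H, CC_s for HC, CC_l for HH and CCC for HHC. In the last 8 weeks a different chow was given, to controls as well, so that the 26- and 39-week groups differ from the 18- and 31-week groups in chow and in age at once.

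PPARγ is a nuclear receptor that binds DNA as a dimer with a retinoid X receptor and drives adipocyte differentiation, lipid storage and adipokine production. It is the target of the thiazolidinedione drugs. The gene has alternative promoters. The upstream promoter gives Pparg1, which is made in many tissues, and the downstream promoter gives Pparg2, which is largely restricted to fat and carries extra residues at its N terminus. C/EBP factors, glucocorticoid receptor and EBF factors act on Pparg during adipogenesis, and PPARγ and C/EBPα maintain each other in mature fat cells.

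In the GENCODE annotation, Pparg1 transcripts start at 115360951 (Pparg-202) and 115362292 (Pparg-204) and encode 475 amino acids. Pparg2 (Pparg-201) starts at 115422066, 61.1 kb downstream of the first Pparg1 start and 68.3 kb before the end of the gene, and encodes 505 amino acids. The 3 starts are printed here because the results turn on them, and 2 intronic positions are shown because peaks of many libraries reached their highest coverage there. Sequences are from RefSeq (GRCm38.p6), forward strand, 5′ to 3′. Each promoter has 250 bases before the RefSeq start and 50 after it. RefSeq places the Pparg1 starts 193 and 57 bases further downstream than GENCODE, at 115361144 and 115362349, and the Pparg2 start at the same base. Distances of motifs are counted from the RefSeq starts, and each intronic window has 100 bases on either side of the median summit. Capitals mark the motif matches that are described after the sequences.
Pparg-202 start (Pparg1), chr6:115360894-115361193: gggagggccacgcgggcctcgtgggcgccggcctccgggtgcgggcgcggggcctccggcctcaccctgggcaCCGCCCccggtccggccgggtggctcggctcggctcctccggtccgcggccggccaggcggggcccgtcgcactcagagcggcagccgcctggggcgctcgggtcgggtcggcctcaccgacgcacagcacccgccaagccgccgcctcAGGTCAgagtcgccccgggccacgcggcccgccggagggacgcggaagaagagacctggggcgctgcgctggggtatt
Pparg-204 start (Pparg1), chr6:115362099-115362398: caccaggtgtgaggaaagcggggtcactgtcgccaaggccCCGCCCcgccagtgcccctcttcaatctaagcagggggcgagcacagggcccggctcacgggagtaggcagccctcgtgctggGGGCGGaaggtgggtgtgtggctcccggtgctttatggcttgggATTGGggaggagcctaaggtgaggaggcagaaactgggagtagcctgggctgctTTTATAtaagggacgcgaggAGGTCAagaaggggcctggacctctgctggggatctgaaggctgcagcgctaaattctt
Pparg-201 start (Pparg2), chr6:115421816-115422115: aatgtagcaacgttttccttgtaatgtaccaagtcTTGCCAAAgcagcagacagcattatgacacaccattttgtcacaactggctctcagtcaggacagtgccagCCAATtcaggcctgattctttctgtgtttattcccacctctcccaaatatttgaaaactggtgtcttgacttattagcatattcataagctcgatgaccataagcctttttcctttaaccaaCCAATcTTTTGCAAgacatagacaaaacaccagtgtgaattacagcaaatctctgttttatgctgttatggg
intronic summit between the promoters, chr6:115390115-115390315: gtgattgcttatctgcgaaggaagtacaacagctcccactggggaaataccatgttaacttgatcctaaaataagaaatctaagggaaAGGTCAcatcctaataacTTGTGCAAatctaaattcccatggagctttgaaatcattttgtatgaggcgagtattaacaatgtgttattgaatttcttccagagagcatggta
intronic summit past the Pparg2 start, chr6:115424493-115424693: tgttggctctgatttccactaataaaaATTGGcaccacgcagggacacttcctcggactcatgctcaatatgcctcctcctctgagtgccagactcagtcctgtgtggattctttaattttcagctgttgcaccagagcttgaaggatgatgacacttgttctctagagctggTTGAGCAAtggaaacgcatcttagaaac

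The promoters differed in base composition. The Pparg-202 start was 80.3% G or C, higher than 99.1% of 32817 RefSeq promoters, and held 44 CpG dinucleotides. The Pparg-204 start was 62.7% G or C with 13 CpG. The Pparg2 start was 40.3% G or C, higher than only 10.7% of promoters, and held 2 CpG, against medians of 52.7% and 7 over all promoters. Pparg1 thus starts in a CpG-rich stretch and Pparg2 in an AT-rich one.

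Both strands of each window were searched for core promoter letters and for motifs of factors known in fat cells. The core letters were TATAAA, called the TATA box here, then GGGCGG for the GC box, which Sp1 family factors bind, and CCAAT for the box of that name, which NF-Y binds. The factor motifs were TTGCNNAA for C/EBP and AGGTCA, the core that nuclear receptors read. The PPAR:RXR element (a direct repeat of that core), the EBF motif and TGANTCA for AP-1 were searched too. GC boxes were in both Pparg1 windows and in 35.6% of all promoters, and the Pparg2 window held none. The Pparg2 window held 2 CCAAT boxes, 144 and 22 bases before its start, and 2 C/EBP matches, which begin 215 and 16 bases before it. C/EBP matches were present in 10.8% of promoters and CCAAT boxes in 37.4%. The Pparg-204 window also held a CCAAT box, on the reverse strand and 83 bases before its start. The AGGTCA core began 28 bases before the Pparg-202 start and 9 bases before the Pparg-204 start (16.3% of promoters hold it), and a TATA box on the reverse strand began 29 bases before the latter (13.6%). Only the letters TATAAA were searched for this box. Across that match the forward strand reads TATATAAG, a form that was not searched. The upstream intronic window held a C/EBP match that begins 6 bases after the summit and an AGGTCA core that begins 12 bases before it. The downstream intronic window held a C/EBP match 73 bases after the summit and a CCAAT box 73 bases before it. Among windows of the same length around the summits of all C 1 peaks, 17.3% held the C/EBP motif, 13.7% the AGGTCA core and 29.7% the CCAAT box. The CCAAT and C/EBP matches share no base in these windows. The PPAR:RXR, AP-1 and EBF motifs were found in none of the 5 sequences, and were present in 0.381%, 7.81% and 0.905% of promoters. A match of letters is a description and does not show that a factor binds there.

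The lists carry no read counts, so sequencing depth is unknown and the number of animals sets the precision. Libraries held 40528 to 60523 peaks covering 128 to 299 Mb. As a measure of enrichment, the median of a library's peak maxima was divided by its lowest peak maximum. The ratio was 6.82 to 8.92 in C and 4.7 to 6.4 in H, and 7.3 to 7.42 in CC_s and 2.43 to 6.5 in HC, so in both pairs the groups did not overlap. HC 3 (2.43) and HHC 3 (2.25) stood apart from the other libraries, and results that rest on them are given with and without them. Of 10 adipocyte marker genes, the median covered 43.0% to 94.9% of its locus depending on the library, and every marker had a peak in every library. The corresponding medians were 3.44% to 14.01% for macrophage markers, 2.87% to 16.8% for endothelial, 1.95% to 6.68% for mesothelial and 4.66% to 22.2% for progenitor markers. The macrophage genes Adgre1, Itgam and Tyrobp had no peak in any C library, and Tyrobp had none in any H library. In HC only Adgre1 lacked a peak in every library, and in HH and HHC no macrophage marker did.

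Pparg was one of the loci most fully covered by peaks in these nuclei. The share of its 169 kb inside peaks was 84.6%, 86.6% and 92.4% in C, and 85.1%, 92.6% and 92.0% in CC_s. It was 90.9% and 79.9% in CCC, and 58.9% and 84.8% in CC_l. The median gene locus was covered to 6.16% to 17.2% in the same 22 libraries. In the 20 libraries other than HC 3 and HHC 3, 0.333% to 3.38% of gene loci were more fully covered than Pparg. In HC 3 and HHC 3 those shares were 23.0% and 27.7%.

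**Figure D1:**
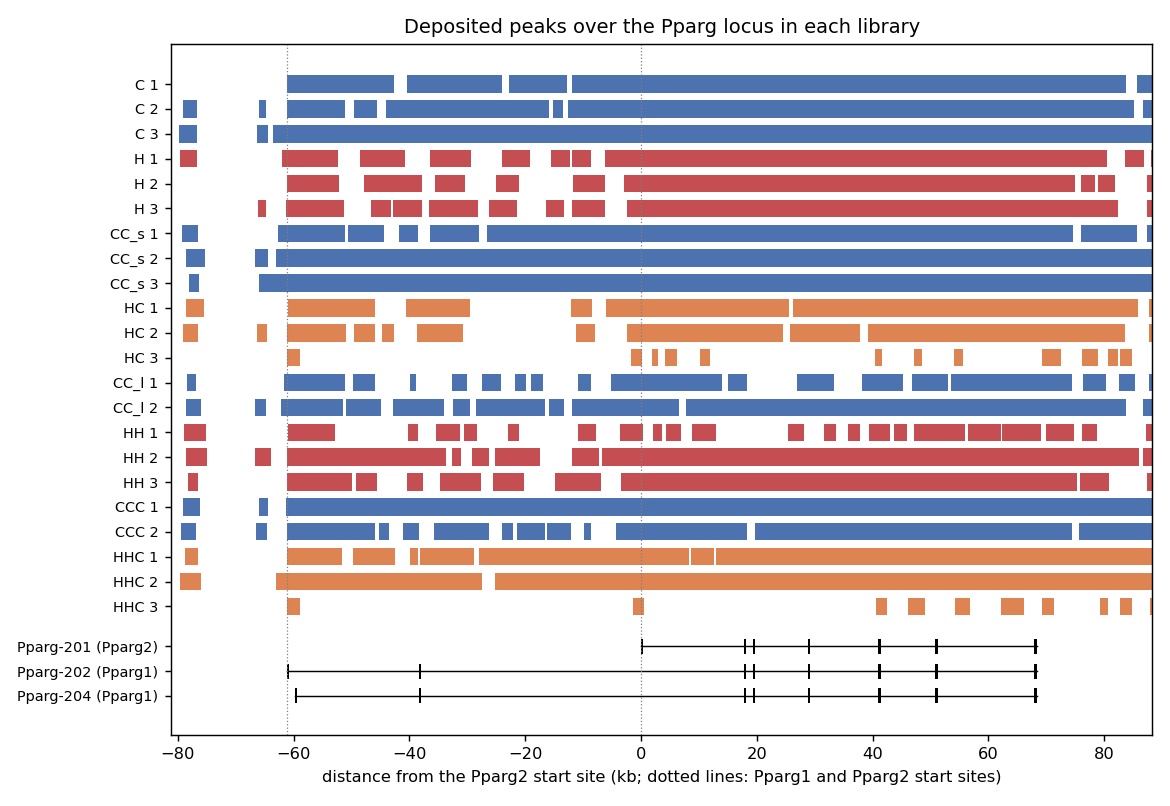
Peaks over the Pparg locus in each of the 22 libraries, 1 row per library, plotted by distance from the Pparg2 start in kb; blue marks chow, red high-fat diet and orange high-fat diet followed by chow. In C 3, CC_s 2, CC_s 3 and CCC 1 a single peak runs over both promoters, whereas CCC 2 has 13 peaks over the locus and HC 3 and HHC 3 show short peaks.

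The peaks over the locus were very long. Their width is that of coverage called in each library, and a stretch outside peaks may still hold reads. The peak over the Pparg2 start was 95.7, 97.8 and 189 kb wide in C, and 101, 189 and 192 kb in CC_s. In 4 libraries (C 3, CC_s 2, CC_s 3 and CCC 1) a single peak covered both promoters, and it was 187 to 192 kb wide. The promoters cannot be told apart by their own peaks in these libraries. The width was 86.7, 78.0 and 84.9 kb in H. H therefore had narrower Pparg2 stretches than any C library.

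The stretch was shorter still in the weight-loss group HC, at 31.6, 27.0 and 1.88 kb, below every CC_s library. In the long-duration groups widths varied within each group. They were 19.1 and 18.5 kb in CC_l and 4.10, 92.7 and 78.8 kb in HH. They were 187 and 22.6 kb in CCC and 36.2, 130 and 1.87 kb in HHC. The long-duration groups overlapped in both comparisons.

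The Pparg2 start was in a peak in all 22 libraries. The first Pparg1 start of GENCODE was outside any peak in 5 libraries (HC 1, HC 3, HH 1, HH 3 and HHC 3), but in each of them a peak began 1 to 176 bases after it and covered the RefSeq start. Pparg-204, the second Pparg1 start, was the most regular summit in the gene. Peaks reached their maximum within 115362176 to 115362348 in 18 libraries, at 1.32 to 2.36 times the library's median peak maximum (median 1.89). The 4 other libraries are those with 1 peak over both promoters.

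Of 195 peaks over the locus, 174 had their summit inside it, and the summits formed 59 sites there. Peaks topped out at the Pparg2 start (115421841 to 115422037) in 10 libraries, at 1.24 to 3.03 times the median (median 2.35). In 7 libraries, including all 3 of HC, a peak topped out at 115424592 to 115424660 in the following intron, 2.53 kb past the start, at 1.35 to 3.99 times the median. HC 3 had a separate peak at each of these sites. A wide peak has 1 summit only, so a library counted at one site may also be open at the other.

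Weaker intronic and flanking sites recurred as well. The site 31.9 kb before the Pparg2 start was a summit in 13 libraries, including all H and HH libraries, at 0.489 to 1.23 times the median. A site 77.4 kb before the Pparg2 start, upstream of the gene, was a summit in 15 libraries at 0.274 to 0.879 times the median. A site 41.1 kb past the Pparg2 start, at an exon shared by the 3 transcripts and inside the antisense gene Gm44079, was a summit in 6 libraries at 0.881 to 2.0 times the median. Strand is not resolved by ATAC-seq. Just beyond the locus, at 115511524 to 115511859, 18 libraries had a summit of 1.17 to 6.25 times the median (median 3.28).

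**Figure D2:**
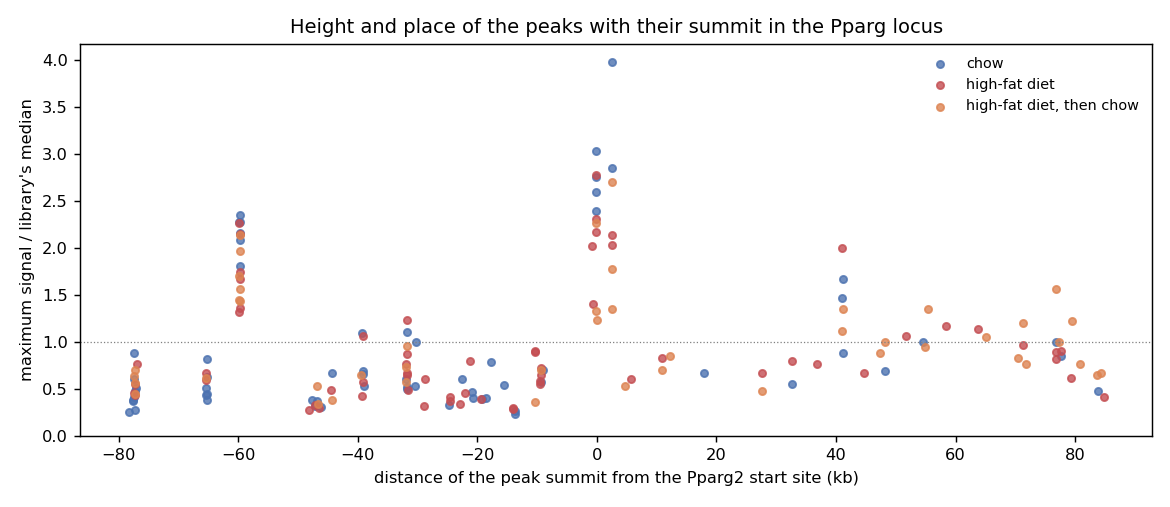
Summits of peaks over the Pparg locus by distance from the Pparg2 start in kb (x axis) and peak maximum relative to the library's median peak maximum (y axis), 1 point per peak, coloured by diet. The tallest recurrent sites within the gene lie at the Pparg-204 start, at the Pparg2 start and 2.53 kb past it.

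After 12 weeks of high-fat diet, less of the Pparg locus lay inside peaks. Coverage was 76.0%, 69.7% and 75.4% in H, each below the lowest C library (84.6%), with means of 73.7% ± 3.46 (SD, n = 3) and 87.9% ± 4.06 (n = 3). The difference was -14.2 percentage points, with an exact permutation p of 0.1, the smallest that 3 against 3 allows. Peaks were also more broken, with 10, 9 and 10 peaks over the locus in H and 5, 8 and 3 in C. Total covered length in the genome was 196.9 to 210.2 Mb in H and 204.1 to 257.7 Mb in C.

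Locus signal is the peaks' summed coverage over the locus, put on a common log2 scale by rank among all gene loci. A peak's total is spread evenly over its length, so a peak that runs past the locus brings in signal from beyond it. The peak over both promoters in C 3, CC_s 2, CC_s 3 and CCC 1 had its summit beyond the locus and ended at 115547531 to 115548206. No H or HC peak over the Pparg2 start ran past the locus. The part of this in the differences was not tested. Locus signal was 21.12, 21.00 and 21.23 in C and 20.54, 20.56 and 20.69 in H. In rank order from the strongest locus, Pparg was 36, 44 and 31 in C and 97, 94 and 75 in H. All H libraries were below all C libraries.

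The decrease passed the test over all genes, with a log2 difference of -0.52 (SE 0.08, adjusted p = 0.00809, limma, n = 3 and 3). In the same comparison 15.5% of the 17025 gene loci tested were called, 6.98% lower and 8.5% higher, and the median gene moved by -0.02. With 1 library left out the number of loci called was 638 to 2153, lowest without C 2, in place of 2636. The call held when each library was left out in turn (adjusted p of 0.0146 to 0.0458, limma). It was lost when all libraries of the short arm shared 1 estimate of spread (adjusted p = 0.198, limma), and held in that fit without HC 3 (adjusted p = 0.0069, limma). Over the gene span alone, without its flanks, the log2 difference was -0.49 (adjusted p = 0.056, limma). Over all alternatives tried, the adjusted p ran from 0.00664 to 0.198 (limma). H libraries also had lower enrichment than C, and the part of enrichment in this difference was not tested. The mean over markers of another cell type differed as well. The mean log2 signal over the 10 endothelial markers was 15.70 to 16.17 in H and 15.54 to 15.60 in C, with no overlap. Over the macrophage markers it was 16.01 to 16.30 in H and 16.08 to 16.25 in C, over the mesothelial markers 15.04 to 15.30 and 15.21 to 15.48, and over the progenitor markers 16.56 to 16.70 and 16.48 to 16.90, all overlapping. Among the endothelial markers only Cdh5, at the floor of the scale in all C libraries, was called higher, and only Vwf was called lower. Kdr and Tie1 had no peak in any C or H library. Tek and Emcn had none in any C library but did in H. The part of other cells in the Pparg difference was not tested.

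**Figure D3:**
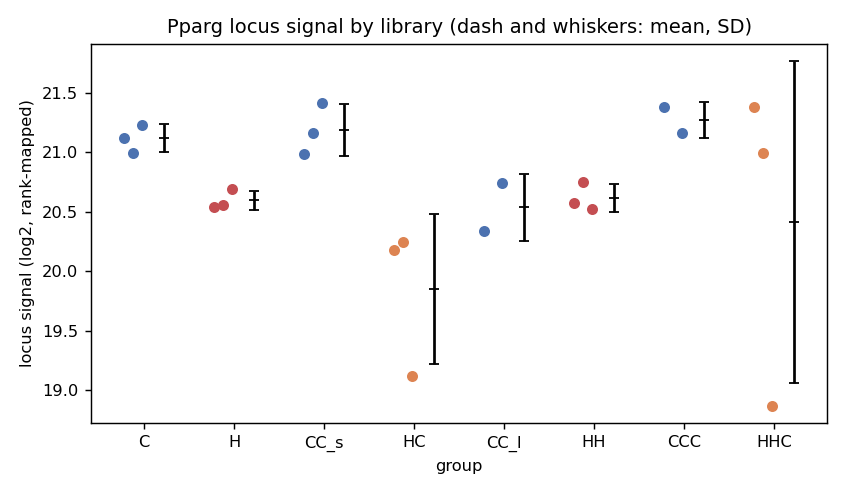
Rank-mapped log2 signal of the Pparg locus in each library by group, points for libraries, with mean and SD. The 3 H libraries (20.54 to 20.69) lie below the 3 C libraries (21.00 to 21.23), and HC lies below CC_s, with HC 3 lowest at 19.12 within its group.

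The missing coverage in H lay mainly between the promoters. Of the 61.1 kb from the first Pparg1 start to the Pparg2 start, 93.1%, 92.1% and 100% were covered in C, and 67.0%, 60.2% and 70.0% in H. From the Pparg2 start to the end of the gene, 100% was covered in all 9 libraries of C, H and CC_s. In the 20 kb past the gene, coverage was 90.4%, 92.0% and 100% in C and 78.4%, 64.9% and 75.3% in H. The 6 libraries with an enrichment ratio below that of every H library varied widely between the promoters: 6.6% was covered in HC 3, 5.77% in HHC 3, 40.6% in HH 1, 52.9% in CC_l 1, 74.3% in CCC 2 and 90.6% in HHC 1. This division was made after the coverage had been seen, and it is given as a description with no test.

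**Figure D4:**
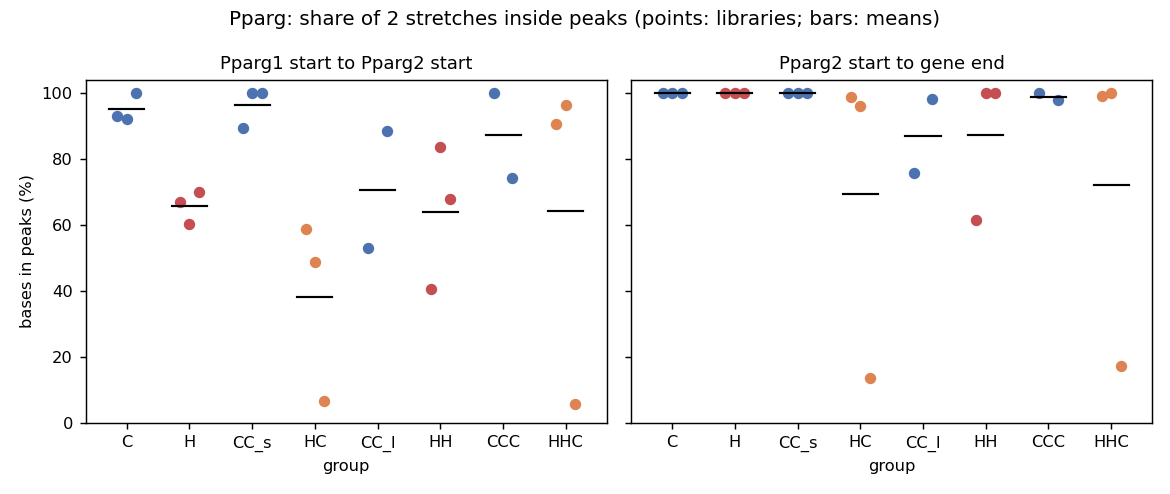
Share of the Pparg locus inside peaks, in percent, for each library (points) in the stretch from the first Pparg1 start to the Pparg2 start and in that from the Pparg2 start to the gene end, with group means as bars. Between the promoters H (60.2% to 70.0%) and HC (6.6% to 58.8%) lie below C and CC_s, while the stretch past the Pparg2 start is fully covered in C, H and CC_s.

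In windows of 1 kb, counted as open when peaks cover 50% of their bases or more, 10 of 157 windows were open in all C and in no H library, or 6.37%, against 2.23% of windows genome-wide. Of the 10 windows, 8 lay between the promoters and 2 in the downstream flank. No window was open in all H and no C library, against 1.54% genome-wide. The windows nearest to the Pparg2 start lay 19.1 to 16.1 kb before it, and others 28.1 to 26.1 kb, 38.1 to 36.1 kb and 49.1 to 48.1 kb before it. With a window counted as open at a single covered base, 4 such windows were left.

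In HC, after the return to chow, less of the locus lay inside peaks than in age-matched controls. Coverage was 73.6%, 68.1% and 13.6% in HC, all below CC_s, with a mean of 51.8% ± 33.2 (SD, n = 3) against 89.9% ± 4.19 (n = 3). Locus signal was 20.18, 20.24 and 19.12 in HC and 20.99, 21.16 and 21.42 in CC_s. The groups did not overlap on either measure, and the exact permutation p was 0.1 for each, the smallest possible.

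The log2 difference was -1.34 (SE 0.29), which did not pass the test over all genes (unadjusted p = 0.00217, adjusted p = 0.229, limma). Of 16936 gene loci tested, 0.0% were called by limma, and 1703 had an unadjusted p under 0.05. Without HC 3 the difference was -0.98 and passed (adjusted p = 0.0434, limma), as 1 of 55 loci called. With all libraries of the arm in 1 fit it was -1.34 (adjusted p = 0.0342, limma). Over all alternatives the difference ran from -1.54 to -0.59 and the adjusted p from 0.0107 to 0.967 (limma). All HC libraries had lower enrichment than all CC_s libraries, and a higher mean log2 signal over the endothelial markers (15.70 to 16.72 against 15.44 to 15.53) and the mesothelial markers (15.33 to 15.60 against 15.14 to 15.32). The macrophage markers (15.79 to 17.06 against 15.99 to 16.03) and the progenitor markers (16.69 to 17.06 against 16.63 to 16.83) overlapped. The part of enrichment or of other cells in the difference was not tested.

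The windows that HC lacked also lay between the promoters. There, 58.8%, 48.6% and 6.6% of bases were covered in HC and 89.4%, 100% and 100% in CC_s. Of 160 windows, 22 were open in all CC_s and in no HC library (13.8%, against 1.86% genome-wide), and the number was 22 without HC 3 and 35 without HC 1. Of these, 20 lay between the promoters, 15 of them in an unbroken run from 27.1 to 12.1 kb before the Pparg2 start, and 2 lay just upstream of the Pparg1 start. No window was open in all HC and in no CC_s library, against 0.16% genome-wide. The lists of H and HC had 4 windows in common, which is 40% of the H list and 18.2% of the HC list. Past the Pparg2 start, HC 1 and HC 2 were covered to 98.9% and 96.0%, and HC 3 to 13.5%.

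The long-duration groups showed no such separation. Coverage was 47.1%, 85.6% and 73.6% in HH, on both sides of the 58.9% and 84.8% of CC_l. Locus signal was 20.58, 20.75 and 20.53 in HH and 20.34 and 20.74 in CC_l. The log2 difference was 0.08 (SE 0.14, adjusted p = 0.847, limma), in a comparison in which 0.0522% of 17246 loci were called. Taken from the maximum signal in place of the total, the difference was -0.34. In both CC_l libraries and in HH 2 that maximum came from a peak with its summit beyond the locus.

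HHC was split by HHC 3. Coverage was 85.7%, 90.2% and 12.6% in HHC, and locus signal 21.38, 21.00 and 18.87, against 21.38 and 21.16 in CCC. The log2 difference was -0.85 (SE 0.73, adjusted p = 0.845, limma), with 0.0% of 17394 loci called and 717 at an unadjusted p under 0.05. Without HHC 3 it was -0.08 (adjusted p = 0.902, limma). In these 2 comparisons 1 window each was open in all controls and in no library of the other group, against 2.72% and 2.33% genome-wide. In the opposite direction 1 window was open in all HH and in no CC_l library (1.26% genome-wide), and none in all HHC and no CCC library (0.427%).

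The difference between durations was not shown. The log2 difference of H from C minus that of HH from CC_l was -0.60 (unadjusted p = 0.00329, adjusted p = 0.907, limma), and that of HC from CC_s minus that of HHC from CCC was -0.49 (adjusted p = 1, limma). No locus was called in either. Pooled over both durations by exact permutation within each, the mean log2 difference in locus signal was -0.22 for high-fat diet (p = 0.13, adjusted p = 0.26 over 14 tests) and -1.10 for weight loss (p = 0.04, adjusted p = 0.154). Without HC 3 and HHC 3 the latter was -0.53 (exact permutation p = 0.0667). Between controls of different age, the difference was 0.07 for CC_s against C (adjusted p = 0.862, limma) and 0.73 for CCC against CC_l (adjusted p = 0.388, limma), with 0.0% of loci called in both. From C to CC_s, 1 window opened in every library and 0 closed (0.592% and 0.309% genome-wide), and from CC_l to CCC 7 opened and 1 closed (3.5% and 2.16%).

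Ordered by mean locus signal, the groups ran from CCC through CC_s, C, HH, H, CC_l and HHC to HC. The libraries of neighbours in this order overlapped, except those of C and HH. Ordered by coverage they ran from CC_s through C, CCC, H, CC_l, HH and HHC to HC, and only CCC and H did not overlap among neighbours. CC_l was the control group with the lowest coverage and signal.

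Promoter signal was summed over 2000 bases on each side of the starts. Because a peak's total is spread evenly over its length, the value is the average of the whole stretch wherever the window lies inside a wide peak. At Pparg2 this holds for all C, H and CC_s libraries, whose peaks there were 78.0 to 192 kb wide, so these values do not isolate the promoter. The Pparg1 values of C 3, CC_s 2, CC_s 3 and CCC 1 come from the peak over both promoters, and do not isolate it either. At Pparg1 the signal was 15.17, 15.74 and 16.64 on the log2 scale in C, and 16.14, 15.82 and 15.88 in H, within the range of C. At Pparg2 it was 15.94, 15.96 and 16.23 in C and 15.76, 15.88 and 15.89 in H, all slightly below C.

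In HC and CC_s the Pparg1 promoter had 14.92, 15.62 and 16.07 against 16.06, 16.67 and 16.88. The Pparg2 promoter had 15.11, 15.42 and 15.78 against 15.74, 16.21 and 16.45. The groups overlapped narrowly at both promoters.

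In the long arm the Pparg1 promoter had 15.62 and 16.03 in CC_l, 16.16, 15.18 and 15.52 in HH, 16.18 and 15.88 in CCC, and 16.02, 15.63 and 15.92 in HHC. The Pparg2 promoter had 15.71 and 15.90 in CC_l and 15.44, 15.73 and 15.70 in HH. It had 16.35 and 16.24 in CCC and 15.61, 15.99 and 15.30 in HHC. At Pparg2 all HHC libraries were below both CCC libraries, whereas at Pparg1 the groups overlapped.

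No comparison passed for either promoter over all promoters. In H against C the log2 difference was 0.10 for Pparg1 (adjusted p = 0.908, limma) and -0.20 for Pparg2 (adjusted p = 0.487, limma), and 0.968% of 13746 promoters were called. In HC against CC_s it was -0.997 (adjusted p = 0.723, limma) for Pparg1 and -0.69 (adjusted p = 0.765, limma) for Pparg2, with 0.0% called. In HH against CC_l it was -0.21 and -0.18, and in HHC against CCC -0.18 and -0.66, with 0.0% called in both. Without a call, 861, 1034 and 583 promoters had an unadjusted p under 0.05 in these 3 comparisons.

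Pooled over both durations, Pparg2 promoter signal was lower by exact permutation at the single-test level in high-fat diet (difference -0.19, p = 0.025) and in weight loss (-0.67, p = 0.02). Neither held after adjustment over the 14 tests (adjusted p = 0.154 each, exact permutation). For Pparg1 the differences were -0.06 (p = 0.87) and -0.59 (p = 0.055, exact permutation). The difference between the 2 promoters, Pparg2 minus Pparg1, changed by -0.13 in high-fat diet (p = 0.645) and by -0.09 in weight loss (p = 0.725, exact permutation). In the 4 libraries with 1 peak over both promoters, all of them controls, that difference is set by how the windows lie on the peak, so it holds no information on the promoters there and no statement on a promoter-specific change can be drawn from it.

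**Figure D5:**
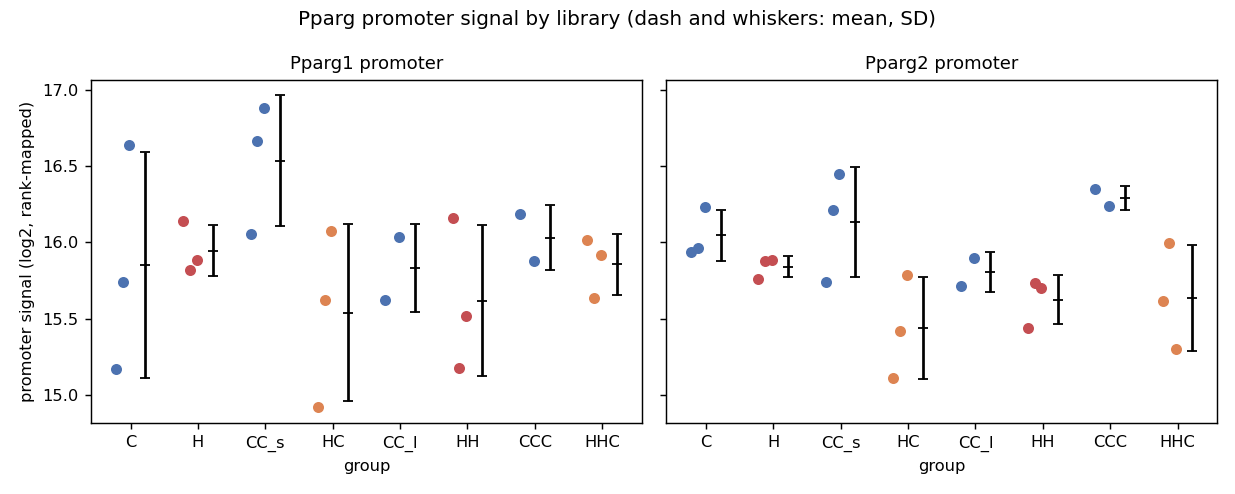
Rank-mapped log2 signal at the Pparg1 and Pparg2 promoters, 2000 bases on each side of the starts, in each library by group, with mean and SD. Groups overlap at Pparg1, and at Pparg2 the H and HHC libraries lie below C and CCC.

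The upstream neighbour of Pparg was far less covered. Syn2, which encodes synapsin II and lies 78.9 kb upstream, was covered to 12.4% to 24.3%, and its H against C difference of -0.23 did not pass (adjusted p = 0.343, limma).

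Among the genes that work with PPARγ, 3 of 16 partners and coregulators were called in H against C, a share close to the 15.5% of all loci. Rxrg, a retinoid X receptor, fell by 0.92 (adjusted p = 0.0279, limma), and the coactivator gene Ppargc1b fell by 0.71 (adjusted p = 0.0137, limma). The coactivator gene Ncoa2 rose by 0.59 (adjusted p = 0.0375, limma), but its difference was -0.10 with maximum signal. Rxra, the main dimer partner in fat, differed by -0.20 (adjusted p = 0.117, limma). The median over the 16 genes was -0.06, against -0.02 over all loci.

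Of 16 upstream regulators, 5 were called, against 15.5% of all loci. Ebf1, a factor of early adipogenesis, fell by 0.50 (adjusted p = 0.00814, limma), and Ebf2, its relative, by 0.68 (adjusted p = 0.0331, limma). Nr3c1, the glucocorticoid receptor gene, fell by 0.58 (adjusted p = 0.0168, limma), and Srebf1, which drives lipid synthesis, by 0.53 (adjusted p = 0.0362, limma). Zfp423, a preadipocyte factor, rose by 0.32 (adjusted p = 0.0387, limma), but was at -0.10 with maximum signal. Cebpa, which encodes the partner factor C/EBPα, differed by 0.24 (adjusted p = 0.207, limma). The list's median was -0.14.

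Of 28 PPARγ target genes, 4 were called, in both directions, a share close to the 15.5% over all loci. Gpam, an enzyme of triglyceride synthesis, fell by 0.86 (adjusted p = 0.00852, limma), the desaturase gene Scd1 by 1.11 (adjusted p = 0.0261, limma) and Cfd, which encodes adipsin, by 0.67 (adjusted p = 0.0465, limma). Fabp4, the fatty acid binding protein of adipocytes, rose by 0.78 (adjusted p = 0.0203, limma). Adipoq, which encodes adiponectin, differed by 0.03 (adjusted p = 0.798, limma), and the list's median was 0.21. When maximum signal replaced total signal, 605 of 17021 loci were called in place of 2636, none of these 12 among them, and Pparg was called at -0.70 (adjusted p = 0.00664, limma). Maximum signal is the highest maximum of any peak that overlaps a locus. For Pparg it came, in all C and H libraries, from a peak with its summit beyond the locus. The call with maximum signal therefore does not describe the Pparg locus itself. With single libraries left out, 10 of the 12 lost their call at least once, and those of Ebf1 and Gpam held. With maximum signal the difference of Ebf1 was -0.061, that of Nr3c1 -0.016 and that of Srebf1 -0.11, while that of Scd1 was -0.65 and that of Gpam -0.57.

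The paralogues Ppara and Ppard, the fatty acid receptors of liver and of many tissues, differed by 0.28 (adjusted p = 0.349, limma) and -0.19 (adjusted p = 0.641, limma). In the other 3 comparisons none of the genes of these 4 lists was called. Fabp4 differed by 1.00 in HC against CC_s (adjusted p = 0.199, limma) and by 0.63 in HH against CC_l (adjusted p = 0.137, limma).

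Among markers of other cell types in H against C, 1 of 7 macrophage, 2 of 7 endothelial, 2 of 6 mesothelial and 1 of 10 progenitor genes tested were called, against 15.5% of all loci. The endothelial cadherin gene Cdh5 was at the floor of the scale (13.77) in all C libraries and at 15.99 to 17.51 in H, and was called higher (adjusted p = 0.00514, limma). The mesothelial marker Upk1b was also at the floor in all C libraries and called higher in H (adjusted p = 0.00519, limma). No fold is given for either, since the floor sets it. The endothelial gene Vwf fell by 1.07 (adjusted p = 0.0224, limma), the mesothelial gene Lrrn4 by 1.52 (adjusted p = 0.00438, limma), the collagen gene Col3a1 of progenitors by 1.05 (adjusted p = 0.0116, limma) and the macrophage gene Cd14 by 0.62 (adjusted p = 0.0456, limma).

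Across the 22 libraries, the loci on other chromosomes whose signal followed that of Pparg most closely were Rbms2 (Pearson r = 0.925), Sf3b3 (0.919), Abhd5 (0.915), Ebf1 (0.912) and Cog6 (0.907), of 13011 compared. The median r was 0.111 and the 99th percentile 0.821. All points share library enrichment, and without HC 3 and HHC 3 the values were 0.818, 0.855, 0.788, 0.695 and 0.658, with Sf3b3 then the highest of all. Abhd5 encodes an activator of triglyceride breakdown and Sf3b3 a splicing factor subunit. Abhd5 was called lower in H against C (log2 difference -1.03, adjusted p = 0.0362, limma), and Sf3b3 was not (-0.34, adjusted p = 0.0623, limma).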

How the data were processed

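Peak lists of 22 ATAC-seq libraries were analysed, 1 per animal. According to the submitters' processing notes, the authors used Trim Galore 0.6.6, Bowtie2 2.4.4, SAMtools 1.13 and bedtools 2.30 with build mm10, and called peaks on each library with SEACR 1.3 (stringent mode, numeric threshold 0.01). The deposited values are total signal (summed coverage) and maximum signal of each peak, with no normalization stated. Whether the removal of blacklisted regions given in the methods precedes these lists is not given in the sources used here. Depth is unknown. In every library 1 mitochondrial peak was dropped.

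Peak total signal was spread evenly over the bases of the peak and summed over each gene locus (GENCODE vM21 gene span and 20 kb on each side) or promoter (2000 bp on each side, starts within 2000 bp joined). Within a wide peak, promoter values therefore carry the peak's average, and a peak that runs past a locus brings in signal from beyond it. Signals were rank-mapped, with the top 16741 loci and 13447 promoters keeping their rank and the rest at a log2 floor of 13.77 and 13.47. Each comparison was fitted with limma 3.58.1 (R 4.3.3, lmFit, eBayes with trend) on the libraries of both groups, with Benjamini-Hochberg adjustment over all features and calls at 0.05. Exact permutation tests, two-sided, compared single values within each duration (3 against 3 or 3 against 2, smallest p 0.1) or over both (200 relabellings, smallest p 0.005), adjusted over 7 measures in 2 contrasts. Windows were 1 kb, and summits within 300 bp were joined. Python 3.11.15, numpy 2.4.6, pandas 2.3.3, scipy 1.17.1 and matplotlib 3.10.9 were used, and the code was tested on simulated data.

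The gene, lists and tests were chosen with earlier results of these data known. In each comparison across all genes, the rule named Rxra, Cebpa, Fabp4, Adipoq, Ppara and Ppard and the 5 list genes of smallest p among those called. It also named the neighbouring genes, of which 1 is not reported here, and the 5 loci most like Pparg. The remaining called list genes, the called markers and the segments were chosen after their values were seen. The alternatives were other scalings, maximum signal, whole peaks, smaller promoters, no filter, eBayes without trend or robust, the replicate number as a block, all libraries of an arm in 1 fit, and the omission of single replicates. Fits without HC 3 in the arm, with the strongest peaks and over the gene span alone were chosen after seeing the data.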

Additional observations from a re-analysis of the deposited data

How the results depend on the processing

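The lists hold no read counts, so depth cannot be weighed, and groups of 2 or 3 animals limit every exact test within a pair to a p of 0.1. A peak list records what passed a threshold in its own library, and a stretch outside peaks may still hold reads. Total and maximum signal were taken after rank mapping, so a difference is relative to the other loci. Maximum signal is the highest maximum of any peak that overlaps a locus or promoter, even where its summit lies outside. H and HC also differ from their controls in enrichment, and its part was not tested. In each case below where a result moved, the cause was not tested.

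For the Pparg locus in H against C, the log2 difference was -0.52 with all libraries of the arm in 1 fit and -0.49 over the gene span alone, neither called. It was called under the other 14 alternatives, of which maximum signal came from peaks with their summit beyond the locus. In HC against CC_s it was -1.34 with all libraries of the arm, -0.98 in that fit without HC 3 and -0.98 without HC 3 in the fit of both groups, all called. Over all alternatives for HC against CC_s it ran from -1.54 to -0.59. In HH against CC_l it was -0.34 with maximum signal. With maximum signal Ncoa2 was at -0.10 and Zfp423 at -0.10, and the other 10 list genes called kept their sign without a call, with Nr3c1 at -0.016, Ebf1 at -0.061, Srebf1 at -0.11, Ebf2 at -0.27, Fabp4 at 0.27, Rxrg at -0.34, Ppargc1b at -0.35, Cfd at -0.37, Gpam at -0.57 and Scd1 at -0.65. Among promoters, Pparg1 in H against C was at -0.52 with maximum signal and -1.27 with the whole signal of each peak, and in HH against CC_l at 0.16 and 0.75, where Pparg2 was at 0.68 with the whole signal. The number of loci called in H against C was 2636, but 605 with maximum signal, 1064 over the gene span, 1201 without a filter and 1271 with the whole arm. It was 638 without C 2, 644 without H 2 and 725 without H 1. In HC against CC_s it was 0 or up to 181, in HH against CC_l 9 or 0 to 649, and in HHC against CCC 0 or up to 17. For promoters in H against C it was 133, or 0 to 394.

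Pooled over both durations, high-fat diet gave a locus signal difference of -0.52 with maximum signal (exact permutation p = 0.015). In all C, H and CC_l libraries and in HH 2 that maximum came from a peak with its summit beyond the locus. The Pparg1 difference was 0.029 with windows of 500 bp, and the Pparg2 difference was -0.25 with maximum signal, 0.13 with whole peaks and -0.17 with 500 bp. Pparg2 minus Pparg1 was 0.39 with whole peaks. Weight loss gave a longest stretch difference of -65.7 kb over the gene span, and a locus signal difference of -0.53 without HC 3 and HHC 3. It gave a coverage difference of -30.3 percentage points, and of -8.22 without HC 3 and HHC 3. Its Pparg1 difference was -0.55 on a median-centred scale, -0.98 with maximum signal and -2.85 with whole peaks. Its Pparg2 minus Pparg1 value was 0.11 with maximum signal, 0.16 with whole peaks and 0.059 without HC 3 and HHC 3. With windows open at a single base, H lacked 4 windows of C, HH had gained 0 and HHC lacked 2.

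When each library was left out in turn, the pooled high-fat diet differences ran from -0.33 to 3.5 in peak number, -23.9 to 3.64 kb in longest stretch, -0.32 to -0.12 in locus signal, -0.23 to 0.14 at Pparg1, -0.24 to -0.14 at Pparg2 and -0.28 to 0.047 in Pparg2 minus Pparg1. The pooled weight-loss differences ran from -37.2 to -17.8 percentage points in coverage, -0.17 to 4.83 in peak number, -92.7 to -45.1 kb in longest stretch, -1.34 to -0.71 in locus signal, -0.77 to -0.59 at Pparg2 and -0.23 to 0.011 in Pparg2 minus Pparg1. The unadjusted exact permutation p of locus signal in weight loss stayed under 0.05 without HHC 1 and was 0.05 or more without any other single library, where fewer relabellings are possible. That of Pparg2 reached 0.05 in weight loss without CCC 1 only, and was above 0.05 in high-fat diet without C 3, any H or either CC_l library. The windows that HC lacked numbered 22 to 35, those HH lacked 1 to 7 and had gained 1 to 13, and those HHC lacked 1 to 5. In the limma fits the Pparg locus ran from -1.54 to -0.98 in HC against CC_s and from -0.12 to 0.28 in HH against CC_l. Where this left a group of 1 library, that library was assumed to vary like the others. Pparg1 ran from -0.24 to 0.49 in H against C and from -0.48 to 0.0083 in HH against CC_l.

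Libraries with the same replicate number did not deviate together (correlation over 0.1 in 4 of 10 pairs, range -0.218 to 0.208), so the numbers do not pair the animals. With the replicate block, Pparg in H against C was at -0.52 (adjusted p = 0.0147, limma) and in HC against CC_s at -1.34 (adjusted p = 0.422, limma). The block gave 1813, 0, 105 and 17 called loci in the 4 comparisons, and the calls of Cfd and Zfp423 were lost.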
